A study of Mus musculus with 2 samples.

Results

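The cornified envelope genes of the epidermal differentiation complex, a cluster on mouse chromosome 3, were compared between 2 cultures of mouse tail keratinocytes, 1 labelled Pp6fl/fl and the other K5.Pp6fl/fl. They were taken from the table by gene symbol: genes named Lce or Sprr with a digit, together with Lor, Ivl, Crct1 and the 7 genes of the fused S100 type (Flg, Flg2, Hrnr, Rptn, Tchh, Tchhl1 and Crnn). Of 48 symbols that matched, 45 were protein-coding in both the GENCODE and the RefSeq annotation, out of 47719 genes in all. The 3 others, Sprr2g, Sprr2j-ps and Sprr2c-ps, are pseudogenes in at least one of them and were left out of the sums; they had 172 and 246 reads (Sprr2g, Pp6fl/fl and K5.Pp6fl/fl), 14 and 20 (Sprr2j-ps), and 0 in both (Sprr2c-ps). The 45 genes were 14 Lce1, 6 Lce3, 10 Sprr2, 2 Sprr1 and 7 fused S100 genes, and the single genes Sprr3, Sprr4, Lce6a, Lor, Ivl and Crct1.

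Both cultures came from C57BL/6J mice aged 8 weeks and had grown for 3 days before polyadenylated RNA was sequenced. Pp6, listed as Ppp6c, encodes the catalytic subunit of the serine/threonine protein phosphatase PP6, and both genotypes carry its floxed allele. By convention K5 names the promoter of the basal-layer keratin Krt5, used to delete a floxed gene in keratinocytes. The labels give no more of the construct, nor the number of mice behind a culture. With 1 library for each genotype, nothing below was checked in replicates, and the 95% intervals take in counting error alone. The libraries held 19374771 (Pp6fl/fl) and 17361260 (K5.Pp6fl/fl) estimated reads.

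Keratinocytes that leave the basal layer replace their plasma membrane with the cornified envelope, a shell of proteins joined by transglutaminases. Involucrin (Ivl) is laid down early as part of the scaffold, small proline-rich proteins (Sprr) bridge other envelope proteins, loricrin (Lor) is the main reinforcing protein of the envelope, and late cornified envelope proteins (Lce) are added last. The fused S100 proteins, filaggrin among them, join a calcium-binding S100 domain to long repeats and tie keratin filaments into the envelope. The genes lie side by side, in families that arose by repeated duplication.

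The coding sequences of Sprr2a1 and Sprr2a2 were identical over 249 bases, without the stop codon, and that of Sprr2a3 differed from both at 3 bases. Sprr2a1 and Sprr2a3 are shown to make the near-identity visible. They are coding strands from GENCODE release M21 (GRCm38), 5′ to 3′, with the bases that differ between them in capitals.
Sprr2a1: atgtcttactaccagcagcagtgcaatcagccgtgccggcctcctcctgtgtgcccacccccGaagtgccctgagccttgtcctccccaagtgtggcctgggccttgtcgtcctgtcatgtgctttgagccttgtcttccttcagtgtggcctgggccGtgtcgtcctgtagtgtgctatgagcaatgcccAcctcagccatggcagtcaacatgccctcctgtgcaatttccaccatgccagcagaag
Sprr2a3: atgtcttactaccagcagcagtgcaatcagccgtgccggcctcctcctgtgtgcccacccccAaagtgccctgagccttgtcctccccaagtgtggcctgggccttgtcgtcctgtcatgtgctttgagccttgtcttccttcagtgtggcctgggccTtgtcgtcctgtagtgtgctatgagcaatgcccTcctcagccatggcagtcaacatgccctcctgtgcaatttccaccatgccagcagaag
What counts for the assignment of reads is the whole transcript. In the longest protein-coding transcript of Sprr2a1, 96.3% of all 50-base stretches also occur in a transcript of another gene, and for Sprr2a2 the share was 96.5%. At 100 bases the shares were still 92.5% and 92.8%. For Sprr2a3 they were 61.1% at 50 bases and 36.2% at 100. The Lce3 genes shared between 12.1% (Lce3b) and 49.3% (Lce3d) of their 50-base stretches, and the 14 Lce1 genes from 0% (Lce1m) to 27.1% (Lce1i). Sprr1a, Sprr1b, Sprr2h, Lor, Crct1 and the 7 fused S100 genes shared 0% at this length.

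The stretch of DNA before the start site also differed by family. RefSeq promoter windows (GRCm38.p6, 250 bases before to 50 after the start site) matched 43 of the 45 genes; Crct1 and Lce1f had no entry. Windows were searched on both strands for TGANTCA, the site of AP-1 factors such as Fos and Jun, for TATAAA, the core of the TATA box, for GGGNGGG, a KLF and SP type site, and for TTNNGCAA, a C/EBP type site. In the 43 windows no match of one motif overlapped a match of another. The 200 bases before the start site are shown for Sprr1a and Sprr2h as the most abundant Sprr1 and Sprr2 genes, for Sprr2e as the Sprr2 gene outside Sprr2a with the largest fold, for Lor and Ivl, and for the most abundant Lce3 genes as windows without a match, with TGANTCA and TATAAA matches in capitals. They lie at chr3:92485882-92486081 (Sprr1a, minus strand), chr3:92351943-92352142 (Sprr2e, plus strand), chr3:92385485-92385684 (Sprr2h, plus strand), chr3:92083143-92083342 (Lor, minus strand), chr3:92573736-92573935 (Ivl, minus strand), chr3:92944286-92944485 (Lce3c, plus strand) and chr3:92957190-92957389 (Lce3d, plus strand), all GRCm38.p6.
Sprr1a: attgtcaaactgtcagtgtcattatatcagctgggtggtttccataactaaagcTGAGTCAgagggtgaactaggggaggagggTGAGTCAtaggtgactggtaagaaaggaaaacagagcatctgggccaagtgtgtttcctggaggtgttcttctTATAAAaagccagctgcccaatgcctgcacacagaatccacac
Sprr2e: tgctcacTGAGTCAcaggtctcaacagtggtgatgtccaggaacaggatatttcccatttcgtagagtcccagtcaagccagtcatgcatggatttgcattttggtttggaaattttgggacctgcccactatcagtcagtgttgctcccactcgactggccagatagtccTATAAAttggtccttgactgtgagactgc
Sprr2h: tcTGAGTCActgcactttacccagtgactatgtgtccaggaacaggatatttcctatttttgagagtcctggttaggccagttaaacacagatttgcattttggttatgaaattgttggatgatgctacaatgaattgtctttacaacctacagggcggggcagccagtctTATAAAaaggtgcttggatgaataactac
Lor: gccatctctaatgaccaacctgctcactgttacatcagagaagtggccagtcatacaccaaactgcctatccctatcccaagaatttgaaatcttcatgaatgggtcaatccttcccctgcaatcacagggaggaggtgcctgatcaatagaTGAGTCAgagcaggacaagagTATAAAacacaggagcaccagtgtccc
Ivl: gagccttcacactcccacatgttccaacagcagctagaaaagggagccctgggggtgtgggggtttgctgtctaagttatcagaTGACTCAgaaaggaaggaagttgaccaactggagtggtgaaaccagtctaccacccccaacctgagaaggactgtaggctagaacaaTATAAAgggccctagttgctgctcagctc
Lce3c: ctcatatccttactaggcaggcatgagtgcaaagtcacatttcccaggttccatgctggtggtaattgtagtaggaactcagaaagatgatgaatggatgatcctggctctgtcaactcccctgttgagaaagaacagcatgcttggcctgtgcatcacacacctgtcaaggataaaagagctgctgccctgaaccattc
Lce3d: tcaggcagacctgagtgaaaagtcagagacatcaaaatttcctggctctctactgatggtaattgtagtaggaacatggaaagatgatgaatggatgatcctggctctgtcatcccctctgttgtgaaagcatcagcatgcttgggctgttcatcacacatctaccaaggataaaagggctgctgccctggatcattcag
TGANTCA occurred in 16 of 43 windows (37.2%), against 7.81% of all 32851 windows of the same length. It was present in both Sprr1 genes, 7 of 10 Sprr2 genes, 5 of 7 fused S100 genes, Lor and Ivl, and in none of the 13 Lce1 and 6 Lce3 windows. In Sprr2e it began 193 bases before the start site, in Sprr2h 198, in Ivl 116 and in Lor 48, while Sprr1a had matches at 146 and 116 bases. TATAAA occurred in 20 of 43 windows (46.5%) against 13.6% of all windows. On the coding strand between 36 and 16 bases before the start site, the usual place of a TATA box, it stood in 16 of 43 windows (37.2%) against 1.86%. GGGNGGG was in 6 of 43 windows (13.95%) against 48.1%, and TTNNGCAA in 5 (11.6%) against 10.8%. A match describes letters only, and a window without one says nothing of the factor.

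**Figure D1:**
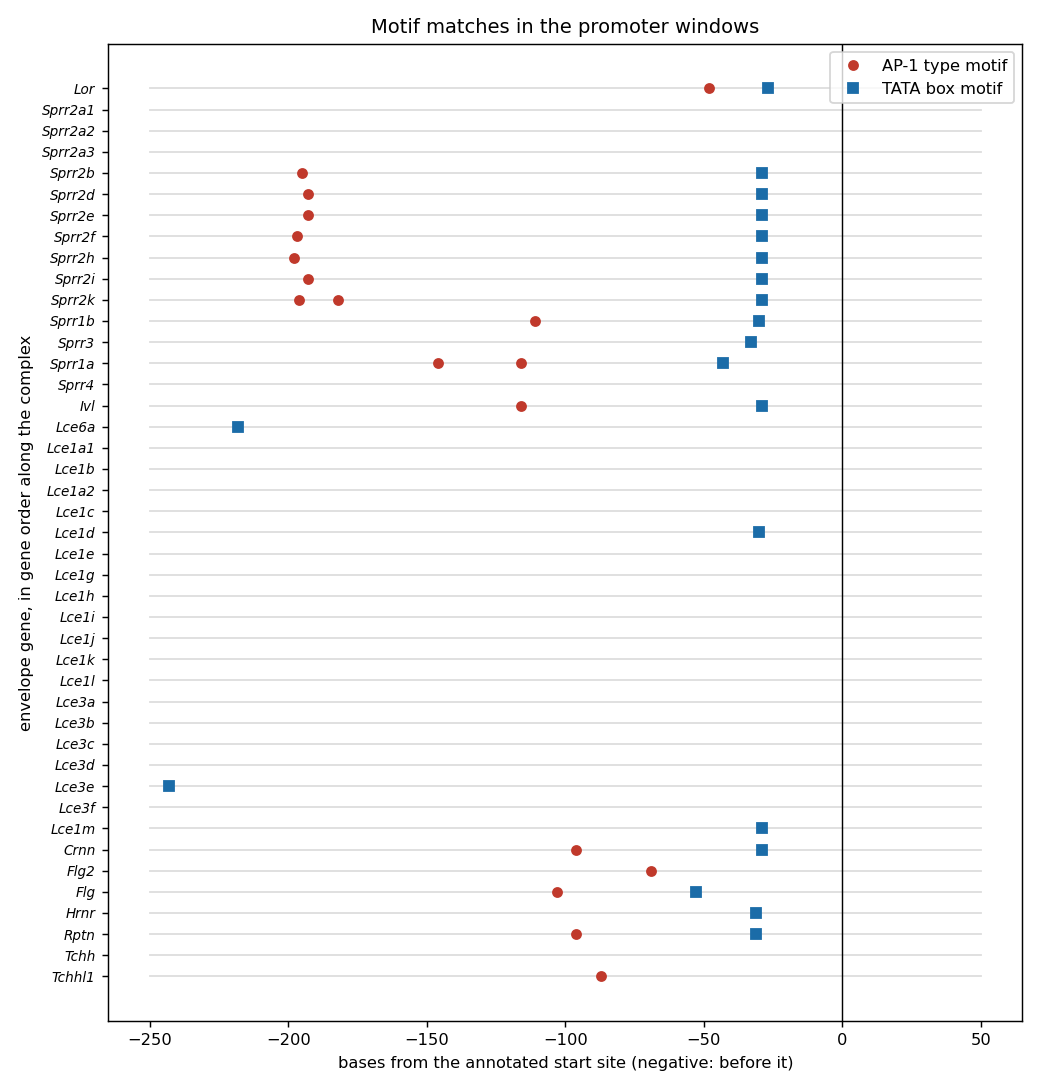
Position of AP-1 type (circles) and TATA box (squares) matches in the promoter windows of 43 envelope genes, listed in gene order, with the distance in bases from the annotated start site. The Sprr2 circles fall between 198 and 182 bases before the start site, and no Lce1 or Lce3 row has a circle.

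As a check of the labels, Ppp6c was at 55.5 CPM (reads scaled to a common library size) in Pp6fl/fl and 40.7 in K5.Pp6fl/fl, with 1074 and 707 reads and a fold of 0.733 (0.666 to 0.807). By the authors' FPKM it was at 30.6 and 16.8, a ratio of 0.548, with implied effective lengths of 1812 and 2430 bases. A fold from reads is here always K5.Pp6fl/fl over Pp6fl/fl, followed by its interval. The 5 basal keratinocyte markers were abundant in both libraries, at 773 CPM (Trp63) to 30699 CPM (Krt14), and summed to 54614 and 51163 CPM. For 4 of them the interval lay below 1: Krt14 (0.93), Krt5 (0.961), Col17a1 (0.905) and Trp63 (0.776). At such levels counting intervals are narrow, as for Krt5 (0.956 to 0.965), so small differences are called. Of all genes at 1 CPM or more in a library, 17.4% had an interval below 1 and 16.6% one above 1. The 5 suprabasal markers summed to 831 and 1073 CPM, with a median log2 ratio of 0.13. Sbsn (679 and 907 CPM, 1.34-fold), Krtdap (54.2 and 68.3 CPM, 1.26-fold) and Dsg1a (63.1 and 69.2 CPM, 1.1-fold) had intervals above 1. The keratin Krt10 (20.9 and 16.1 CPM, 0.77-fold) had one below 1, and that of Krt1 (13.3 and 12.5 CPM) included 1. The part of the basal and suprabasal balance in the results was not tested. The 5 leukocyte markers had 0 reads in both libraries. The 6 fibroblast markers summed to 0.775 and 0.92 CPM, with Lum at 0, and the 3 endothelial markers to 0.62 and 1.32 CPM, with Cdh5 at 0 in Pp6fl/fl. The 6 melanocyte markers were low in both but higher in K5.Pp6fl/fl, with sums of 7.7 CPM (single genes 0.362 to 2.48) and 15.4 CPM (0.46 to 4.95) and none at 0. Of the 4 expressed ones 3 had an interval above 1, against 16.6% of expressed genes, and their part in the results was not tested. In oesophagus-type epithelium markers, Krt4 was near 0 (0.0517 and 0.115 CPM) and Krt78 at 66.4 and 86.4 CPM (1.3-fold, 1.21 to 1.4). Krt13 was at 3.36 and 1.21 CPM, with 65 and 21 reads (0.36-fold, 0.209 to 0.596). It was thus at least 2-fold lower, as were 0.195% of expressed genes. The 6 hair follicle and sebaceous gland markers summed to 514 and 518 CPM. Of these, Krt75 (36.8 and 62.6 CPM, 1.7-fold, 1.55 to 1.87) and Krt15 (3.72 and 5.64 CPM, 1.52-fold, 1.11 to 2.08) had intervals above 1, and Sox9 (470 and 446 CPM, 0.949-fold, 0.92 to 0.978) one below 1. The interval of Lhx2 (3.05 and 3.68 CPM) included 1, and Mc5r and Krt71 had no more than 2 reads. The median log2 ratio of the 4 expressed was 0.39, and their part in the results was not tested either.

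Every expressed envelope gene had a higher value in the K5.Pp6fl/fl library, most of them by less than 2-fold. Together they held 46319 reads in Pp6fl/fl, 0.239% of the library (exact binomial interval 0.237 to 0.241), and 58480 in K5.Pp6fl/fl, 0.337% (0.334 to 0.34). This is a fold of 1.41 (1.39 to 1.42). In a bulk culture, more cells that make envelope proteins and more RNA per such cell cannot be told apart. Of the 45 genes, 41 reached 1 CPM in a library and are called expressed; Sprr3, Sprr4, Sprr2k and Lce6a did not. All 41 had a log2 ratio above 0 (with 0.5 CPM added to both values), where 46.9% of the 12325 expressed genes did. Flg2, Crnn, Lce1j, Sprr2b and Tchhl1 were below 1 CPM in Pp6fl/fl (0.465 to 0.827). They passed the floor only through K5.Pp6fl/fl, so their sign was fixed in advance. Of the genes under the floor, Sprr3 and Sprr4 had log2 ratios below 0 (-0.14 and -0.27), with no more than 6 reads in a library. For 29 of the 41 the interval of the fold lay above 1, against 16.6% of expressed genes, and for none below 1, against 17.4%. All 10 members at 50 CPM or more were among the 29, where 21.8% of the 4538 genes at that level had such an interval. Of these 10, 2 (Sprr2a1 and Lce3d) were at least 2-fold higher, against 0.132% of the genes at that level. Sprr2a1 (26.7 CPM), Lce3b (42.8) and Ivl (45.1) were below 50 CPM in Pp6fl/fl. They reached that level only through K5.Pp6fl/fl, so their sign was fixed in advance here too. The median log2 ratio of the 41 was 0.60, beside -0.01 over all expressed genes.

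A difference of at least 2-fold (log2 ratio of 1 or more with an interval above 1) was found for 6 of the 41, against 0.811% of expressed genes; for lower values the count was 0 of 41 against 0.195%. The 6 were Sprr2a1, Sprr2a3, Sprr2e, Lce3d, Lor and Flg2, of which Flg2 reached 1 CPM only in K5.Pp6fl/fl. With the near-identical Sprr2a genes summed to 1 entry, 5 of 39 passed the rule and 27 had an interval above 1. Adding 2 CPM in place of 0.5 left 3 of them, Sprr2a1, Sprr2e and Lce3d, and a 1.5-fold rule gave 20. Across the 41, the log2 ratio had a Spearman rho of 0.06 with the mean level, -0.19 with transcript length and 0.04 with GC content. These are descriptions over genes of the same pair of libraries, many of which share sequence.

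**Figure D2:**
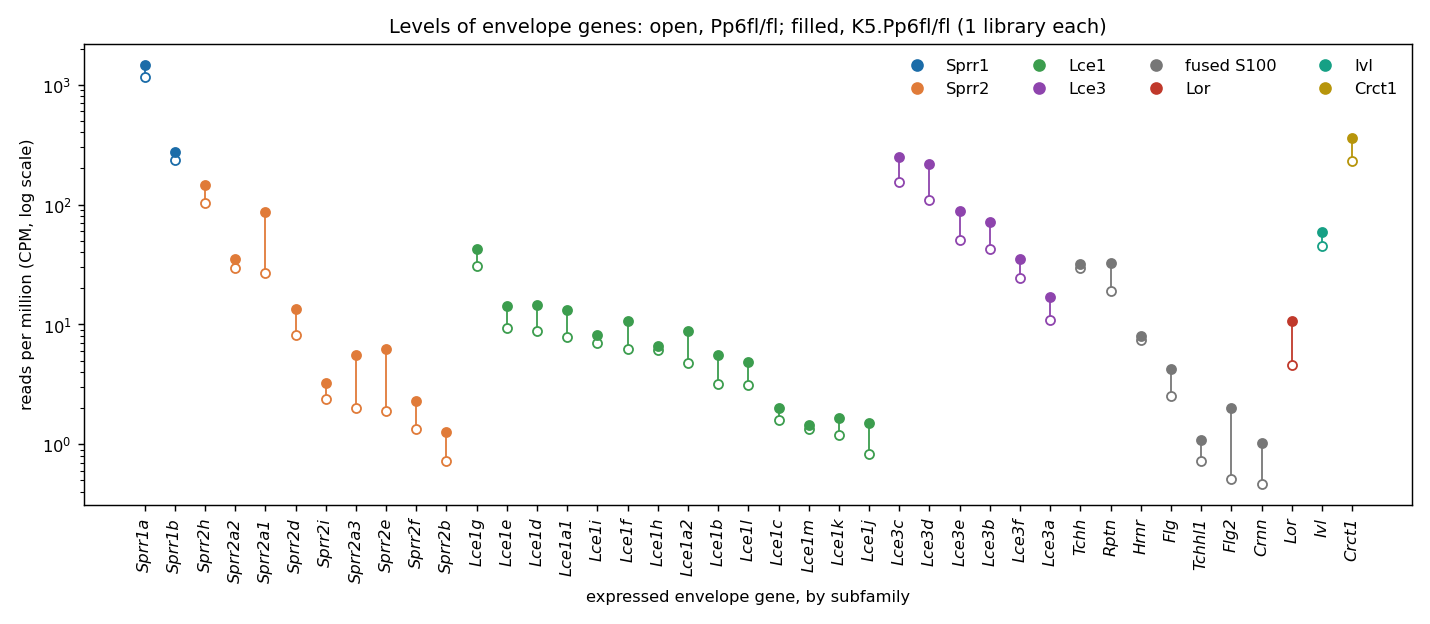
Level of the 41 expressed envelope genes in CPM (log axis), with Pp6fl/fl as open and K5.Pp6fl/fl as filled circles, 1 library each, sorted by subfamily. Each filled circle lies above its open circle, and levels run from Sprr1a at 1158 and 1461 CPM down to Crnn at 0.465 and 1.04 CPM.

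In sum, the Sprr1 genes were the most abundant envelope family. Their fold was the smallest among Lce1, Lce3, Sprr1, Sprr2 and the fused S100 genes, although not separable from that of the fused S100 genes. Sprr1a, which encodes a small proline-rich protein of the envelope, gave 22408 reads in Pp6fl/fl and 25391 in K5.Pp6fl/fl (1158 and 1461 CPM). It ranked 48th of 12325 genes by mean level and had a fold of 1.26 (1.24 to 1.28). Its relative Sprr1b stood at 235 and 273 CPM, a fold of 1.16 (1.12 to 1.21). The sum of both was 1.25-fold higher (1.22 to 1.27). Involucrin, Ivl, the early scaffold protein, had 872 and 1017 reads, a fold of 1.3 (1.18 to 1.42). The makeup of the envelope reads differed too. Sprr1 genes held 58.2% (57.7 to 58.6) of envelope reads in Pp6fl/fl and 51.5% (51.1 to 52.0) in K5.Pp6fl/fl. The share of Lce3 was 16.3% (15.99 to 16.7) and 20.3% (19.96 to 20.6), and that of Sprr2 7.33% (7.1 to 7.57) and 8.93% (8.7 to 9.16). Per length, by the summed FPKM of the authors, the shares of Sprr1 were 49.2% and 42.3%, and those of Lce3 29.1% and 35.5%.

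The Sprr2 genes, which also encode small proline-rich envelope proteins, were higher by 1.71-fold in sum (1.64 to 1.79), from 3396 to 5222 reads, but unevenly. Sprr2h was the most abundant, with 1986 and 2547 reads (103 and 147 CPM), and its fold of 1.43 (1.35 to 1.51) lay below that of the family. Sprr2d had 159 and 236 reads, a fold of 1.65 (1.35 to 2.03). Sprr2e had 37 and 108 reads, 1.91 and 6.21 CPM, a fold of 3.25 (2.22 to 4.86). Its closest coding relative is Sprr2i, with 96.9% identity, although only 9.53% of the 50-base stretches of Sprr2e occur in Sprr2i. Sprr2i had 46 and 56 reads, a fold of 1.36 (0.901 to 2.05), and the sum of the pair was 2.2-fold higher (1.68 to 2.9). The remaining low genes were Sprr2f, with 26 and 40 reads (1.71-fold, 1.02 to 2.92), and Sprr2b, with 14 and 22 (1.75-fold, 0.856 to 3.7). Sprr2k had 0 and 3 reads, at or under the limit of 3 reads that a count of 0 allows (0.155 CPM in Pp6fl/fl and 0.173 in K5.Pp6fl/fl), so no fold is given.

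Within Sprr2 the near-identical Sprr2a genes carried most of the difference in reads. Sprr2a1 had 517 and 1504 reads (26.7 and 86.5 CPM), which is a 3.24-fold difference (2.93 to 3.59). Sprr2a2, with an identical coding sequence, had 572 and 609 reads (29.6 and 35.0 CPM), a 1.19-fold difference (1.056 to 1.33). Sprr2a3 had 39 and 97 reads, a fold of 2.77 (1.89 to 4.13). The split of reads between the copies differed. Sprr2a1 held 45.8% (42.9 to 48.8) of Sprr2a reads in Pp6fl/fl and 68.1% (66.1 to 70.0) in K5.Pp6fl/fl, and Sprr2a2 50.7% (47.7 to 53.7) and 27.6% (25.7 to 29.5). Their sum, which does not depend on that split, went from 1128 to 2210 reads, a fold of 2.18 (2.03 to 2.35). Without these 3 genes the fold of Sprr2 was 1.48 (1.4 to 1.56).

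The authors' FPKM values gave a smaller difference for the same genes. Summed over Sprr2a1, Sprr2a2 and Sprr2a3 they were 74.8 and 112, a ratio of 1.49, and over all Sprr2 genes the ratio was 1.5. The deposited counts and FPKM together imply an effective length for each gene. It came to 2700 and 2696 bases for Sprr2a1, close to its transcript of 3003 bases, but to 483 and 527 bases for Sprr2a2 and 528 and 431 for Sprr2a3, whose longest transcripts have 2867 and 2880 bases. A read of Sprr2a1 thus adds far less to an FPKM sum than a read of Sprr2a2. Whether the added reads came from Sprr2a1 or from the other copies cannot be told apart in these files.

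**Figure D3:**
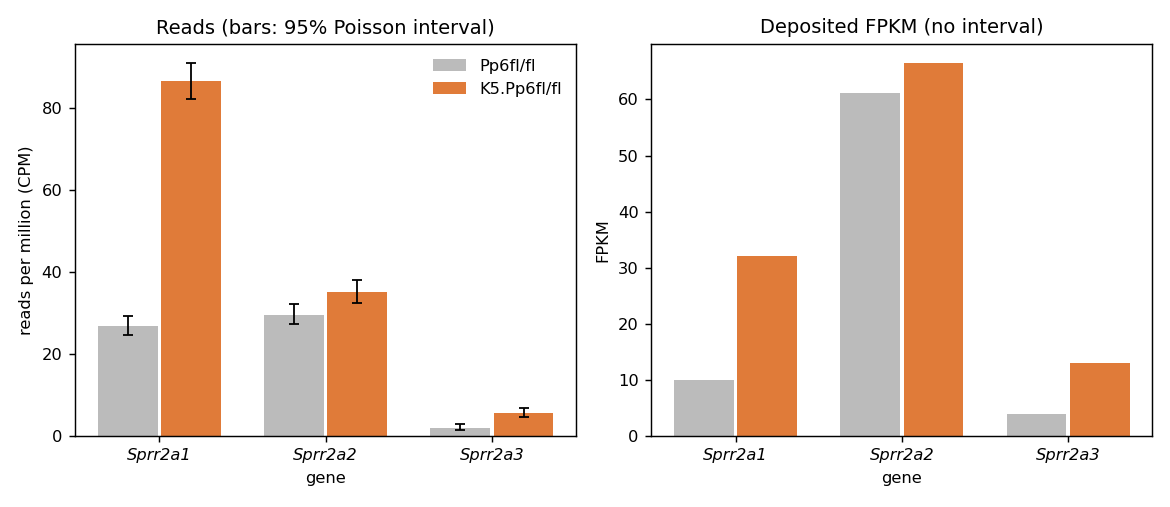
Sprr2a1, Sprr2a2 and Sprr2a3 in Pp6fl/fl (grey) and K5.Pp6fl/fl (orange), 1 library each: left, CPM with exact Poisson 95% intervals; right, the authors' FPKM, without intervals. By CPM Sprr2a1 is the highest bar in K5.Pp6fl/fl (86.5), by FPKM Sprr2a2 is the highest in both libraries (61.1 and 66.6).

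Sprr3, best known from oesophageal epithelium, had 1 and 0 reads, and Sprr4 had 6 and 3 reads, with a ratio of 0.557 (0.0901 to 2.61). The deposited FPKM of Sprr4, 47.0 and 28.0, rests on an implied effective length of 6.59 and 6.18 bases for a transcript of 231 bases, and its level per length is not comparable with the others.

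All 6 Lce3 genes were higher, and their intervals all lay above 1, against 16.6% of expressed genes. Summed, they came to 7560 and 11865 reads (391 and 683 CPM) and to a fold of 1.75 (1.7 to 1.8). Lce3c was the most abundant at 154 and 251 CPM, a fold of 1.63 (1.55 to 1.71). Lce3d, at 108 and 219 CPM, had a fold of 2.02 (1.92 to 2.13), and its interval lay wholly above that of Lce3c. Lce3e had 976 and 1546 reads (1.76-fold, 1.63 to 1.91), Lce3b 828 and 1242 (1.67-fold, 1.53 to 1.83) and Lce3a 210 and 295 (1.56-fold, 1.31 to 1.88). The smallest fold was that of Lce3f, with 470 and 615 reads (1.46, 1.29 to 1.65), which shares 41.1% of its 50-base stretches with Lce3e. Lce3d, Lce3e and Lce3f share the most sequence, and their sum, which does not depend on the split between them, was 3540 and 5965 reads, a fold of 1.88 (1.8 to 1.96). Lce3c shares 34.2% of its 50-base stretches with Lce3f, and with Lce3c added the fold was 1.76 (1.71 to 1.82). The intervals of single Lce3 genes, those of Lce3d and Lce3c included, do not take in the split of shared reads.

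Lce1 genes encode late envelope proteins too, but at lower levels and with a smaller difference. The 14 genes summed to 1786 and 2370 reads (92.3 and 136 CPM), with a fold of 1.48 (1.39 to 1.57). None was 2-fold higher, against 0.811% of expressed genes, and at such a share a count of 0 among 14 says little. An interval above 1 was found for 8, against 16.6% of expressed genes. Lce1g led with 593 and 747 reads (1.4-fold, 1.26 to 1.56), which was 33.2% of the Lce1 reads in Pp6fl/fl. The largest fold was that of Lce1a2, with 93 and 153 reads (1.83, 1.41 to 2.4), followed by Lce1j, with 16 and 26 reads and an interval that includes 1 (0.935 to 3.61). Lce1b had 62 and 97 reads (1.74-fold), Lce1f 121 and 184 (1.69-fold), Lce1a1 153 and 230 (1.67-fold) and Lce1d 172 and 253 (1.64-fold). Lce1l followed with 60 and 85 reads (1.58-fold) and Lce1e with 182 and 248 (1.52-fold), and the intervals of these 6 all lay above 1. Intervals that include 1 were also those of Lce1h, at 119 and 116 reads (1.09-fold, 0.833 to 1.41), and Lce1i, at 135 and 142 (1.17-fold, 0.919 to 1.49). Both genes were low, at 6.15 to 8.17 CPM. Lce1c (31 and 35 reads) and Lce1k (23 and 29) were too low to separate from 1. Lce1m, with 26 and 25 reads, had the lowest log2 ratio of the 41 genes, 0.07. It lies apart from the other Lce1 genes, beyond Lce3 and Crct1, and its coding sequence had 43.4% to 57.9% identity with theirs. Lce6a, between Ivl and the Lce1 genes, had 11 reads in both libraries.

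Crct1, a cysteine-rich gene between Lce3f and Lce1m, was the most abundant member after Sprr1a by mean level. It gave 4483 and 6256 reads (232 and 359.9 CPM), with a fold of 1.55 (1.49 to 1.61). Loricrin, Lor, first in the gene order, was low, with 88 and 186 reads (4.55 and 10.7 CPM) and a fold of 2.35 (1.82 to 3.07). By FPKM, which divides by length, Lor stood at 3.08 and 7.28, Ivl at 27.8 and 36.3, Lce3c at 590 and 961, and Sprr1a at 2314 and 2925. The level of Lor per length was thus far below those of Sprr1a and the Lce3 genes in both cultures.

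Of the 7 fused S100 genes, 3 had an interval above 1, against 16.6% of expressed genes. Rptn (repetin) had 365 and 563 reads (1.72-fold, 1.5 to 1.96), Flg (profilaggrin) 49 and 74 (1.68-fold, 1.16 to 2.46) and Flg2 10 and 35 (3.9-fold, 1.89 to 8.82). Tchh (trichohyalin), a protein of the hair inner root sheath and tongue, was the most abundant of the 7 in Pp6fl/fl, with 574 and 558 reads, and its fold of 1.08 (0.961 to 1.22) had an interval that includes 1. The same held for Hrnr (hornerin), with 144 and 139 reads (1.07-fold, 0.845 to 1.37). Crnn (cornulin), with 9 and 18 reads, and Tchhl1, with 14 and 19, were near the floor. The sum of all 7 was 1.34-fold higher (1.24 to 1.45), and 1.6-fold without Tchh. The implied effective length of Flg was 818 bases in both libraries, against the 1488 bases of its longest protein-coding transcript in the reference.

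**Figure D4:**
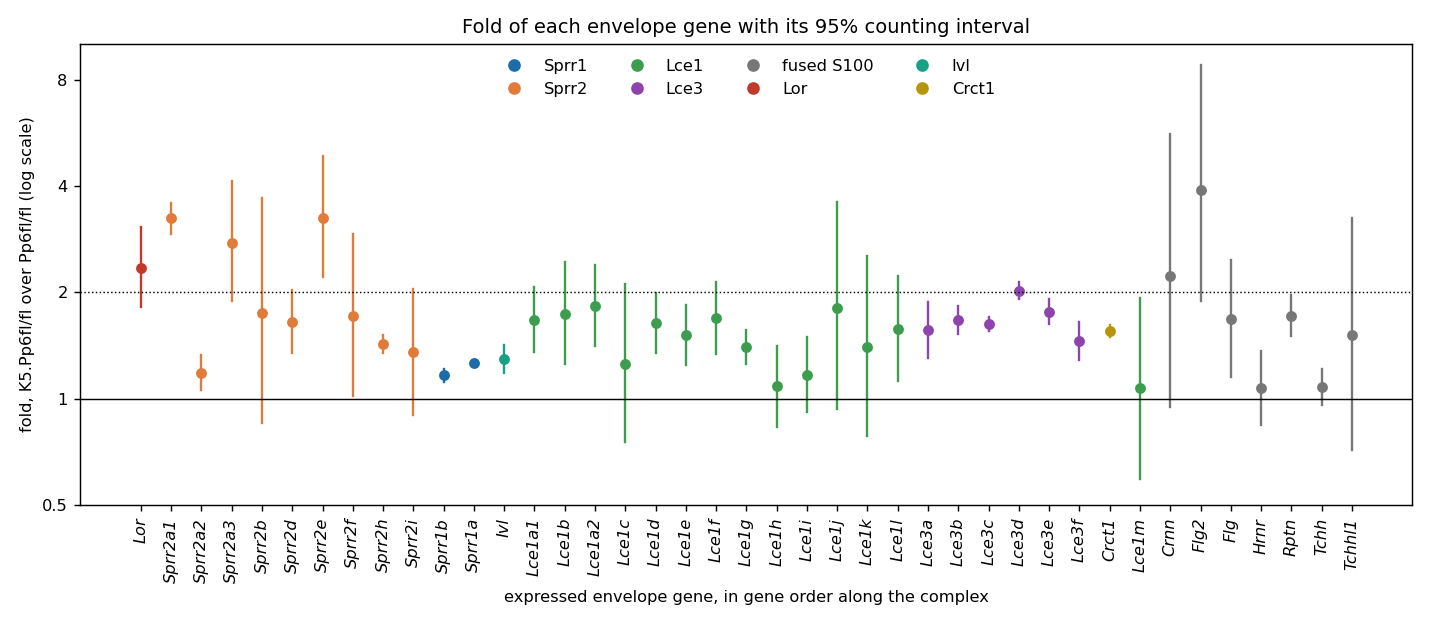
Fold (K5.Pp6fl/fl over Pp6fl/fl, log axis) with its 95% counting interval for the 41 expressed genes, in gene order from Lor to Tchhl1; the dotted line marks 2-fold. Points of Sprr1a, Sprr1b and Ivl lie between 1.16 and 1.3, those of the 6 Lce3 genes between 1.46 and 2.02.

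The families were set against each other by the ratio of their folds, with an exact interval from the 4 read sums. For 7 of the 10 pairs among Lce1, Lce3, Sprr1, Sprr2 and fused S100 genes the interval excluded 1. The fold of Lce3 was 1.4 times (1.36 to 1.45) that of Sprr1, 1.3 times (1.2 to 1.41) that of the fused S100 genes, and 1.02 times (0.969 to 1.08) that of Sprr2. The fold of Lce1 was 0.846 times (0.79 to 0.905) that of Lce3, 0.863 times (0.8 to 0.931) that of Sprr2 and 1.19 times (1.11 to 1.27) that of Sprr1. Sprr1 stood at 0.727 (0.694 to 0.762) relative to Sprr2, and Sprr2 at 1.27 (1.16 to 1.39) relative to the fused S100 genes. The fused S100 genes could not be separated from Lce1, with a ratio for Lce1 of 1.1 (0.995 to 1.22), or from Sprr1, with a ratio for Sprr1 of 0.927 (0.855 to 1.0). By FPKM the positions of Sprr2 and of the fused S100 genes changed, so that Lce1 over Sprr2 was 0.997, Lce3 over Sprr2 1.18, Sprr2 over the fused S100 genes 1.02 and Sprr1 over the fused S100 genes 0.847. The order of Sprr2 and of the fused S100 genes among the families thus depends on the measure, while that of Lce3 over Sprr1 does not.

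**Figure D5:**
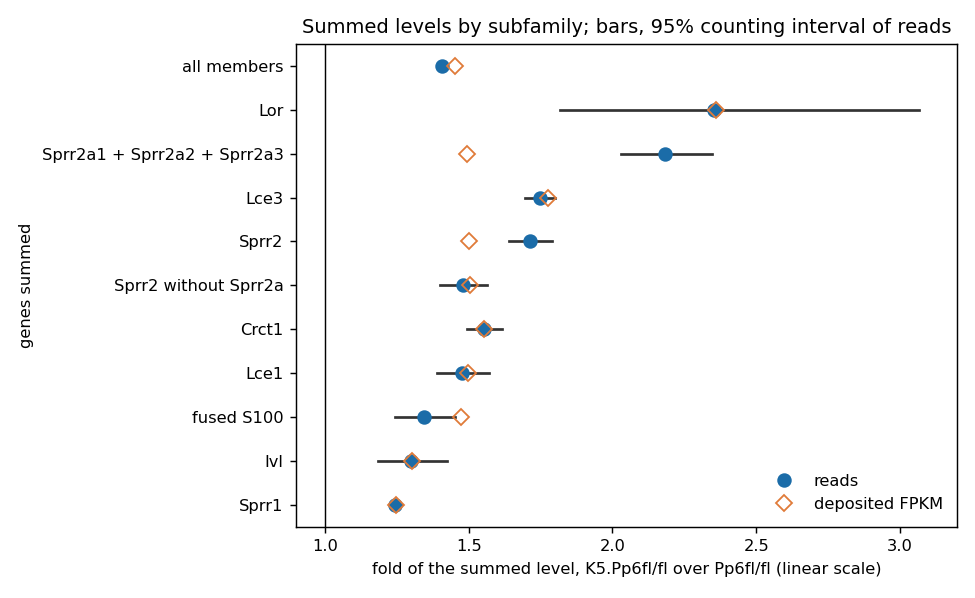
Fold of summed levels by family, K5.Pp6fl/fl over Pp6fl/fl (linear axis), from reads (circles, with 95% counting interval) and from the authors' FPKM (diamonds). The measures lie apart for the Sprr2a genes (2.18 and 1.49), for Sprr2 as a whole (1.71 and 1.5) and for the fused S100 genes (1.34 and 1.47).

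Expressed genes with and without the AP-1 type match had overlapping log2 ratios. The 15 expressed genes with TGANTCA in the window had a median of 0.60 (0.22 to 1.48), and the 24 without it a median of 0.59 (0.07 to 1.68). This split largely followed family, as Sprr2a1, Sprr2a2, Sprr2a3 and all Lce1 and Lce3 windows lacked the match. Motif and family cannot be told apart here. Flg2, Crnn, Sprr2b and Tchhl1, with the match, and Lce1j, without it, passed the floor only through K5.Pp6fl/fl. For TATAAA the medians were 0.60 over the 17 genes with it and 0.59 over the 22 without.

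The other genes of the complex, mostly of the S100 family, had values on both sides of 1. Of 17 listed, 14 were expressed, with a median log2 ratio of 0.09. The interval lay above 1 for 5, against 16.6% of expressed genes, and below 1 for 4, against 17.4%. The calprotectin subunits S100a9 (129 and 281 reads, 2.42-fold, 1.96 to 3.01) and S100a8 (92 and 194 reads, 2.35-fold, 1.82 to 3.04) and the peptidoglycan recognition protein gene Pglyrp3 (78 and 160 reads, 2.28-fold, 1.73 to 3.03) were at least 2-fold higher. These 3 of 14 stand beside 0.811% of expressed genes. Abundant S100 genes were close to equal or lower: S100a11 was at 1468 and 1447 CPM, S100a14 at 643 and 557 (0.866-fold, 0.843 to 0.889) and S100a16 at 448 and 373 (0.832-fold, 0.806 to 0.859). Kprp, a proline-rich keratinocyte gene next to the Lce genes, had 1145 and 1426 reads, a fold of 1.39 (1.28 to 1.5).

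Among enzymes and partners that build the envelope, most had an interval above 1. Of 21 listed genes of crosslinking, scaffold and late differentiation 20 were expressed and had a median log2 ratio of 0.30. The interval lay above 1 for 13 of them, against 16.6% of expressed genes, included 1 for 7 and lay below 1 for 0. The 2-fold rule was passed by 0, against 0.811% of expressed genes. The lowest fold was that of Aloxe3, at 0.941 (0.857 to 1.03). The transglutaminases Tgm1 (677 and 850 reads, 1.4-fold, 1.26 to 1.55) and Tgm3 (431 and 547 reads, 1.41-fold, 1.24 to 1.61), which crosslink envelope proteins, were close to the Lce1 sum. The most abundant of the list were Dmkn at 945 and 1172 CPM and Sbsn at 679 and 907 CPM, both secreted proteins of differentiating epidermis. The 22 listed transcription factors that act on the complex were all expressed, and their median log2 ratio was 0.15. The interval lay above 1 for 12, against 16.6% of expressed genes, and below 1 for 4, against 17.4%. The 2-fold rule was passed by 0, against 0.811%. The most abundant were Trp63, the p63 factor of the basal layer, at 996 and 773 CPM (0.776-fold, 0.759 to 0.793), and Jun, a subunit of AP-1, at 440 and 376 CPM (0.856-fold, 0.828 to 0.884).

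The authors' deposited table gave an FDR below 0.05 for 26 of the 45 envelope genes, all with a positive log2 fold change, against 3.72% of all genes in it. Its smallest were those of Sprr2a1 (log2 fold change 1.69, FDR 5.37e-87) and Lce3d (1.01, 4.31e-61). The share of all genes was taken over 47719 genes, of which 12325 were expressed, so it is not comparable with the shares of expressed genes given above. As 41 of the 45 envelope genes were expressed, it is not a like comparison for the 26 of 45 either. The authors' values rest on the same 2 libraries and add no replicate.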

How the data were processed

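RNA from 1 Pp6fl/fl and 1 K5.Pp6fl/fl culture was analysed from 1 deposited table. RSEM, edgeR and mouse build mm8 are named per the submitters' processing notes, which give no version or role for them; the sources used here state no aligner, annotation or filters. The authors deposited estimated counts multiplied by 1 constant per library. Dividing by that constant returned whole numbers, within 0.01, for 97.3% (Pp6fl/fl) and 97.4% (K5.Pp6fl/fl) of values under 100 reads. The authors' deposited FPKM values divide by an effective length; depth for them is that of the counts. The authors' deposited table also holds log2 fold changes and p-values with FDR, from single libraries and an unstated dispersion. The library kit named in the labels does not mark strand.

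Symbols were looked up by Ensembl ID (47219 of 47719 matched). The build of the files differs from the reference (GRCm38), which served for symbols, gene type, gene order and sequences only. Reads were rounded and scaled by TMM (edgeR 4.0.16, R 4.3.3). Folds are ratios of CPM with exact conditional (Clopper-Pearson) 95% intervals; log2 ratios add 0.5 CPM. At 50 CPM or more the widest interval of a member had a half-width of 0.15 on the log2 scale; for lower members the median half-width was 0.38. Without molecular identifiers, reads are not independent molecules. Ratios of family folds use the exact conditional odds ratio. Shared sequence was counted as 50- and 100-base stretches of each gene's longest protein-coding transcript found, on either strand, in any GENCODE M21 transcript of another gene, as no source used here states the read length. Coding sequences were aligned with Biopython 1.88; those of Lce3 are not reported here. Scaling and intervals were tested on simulated Poisson counts. The simulation held no reads shared between copies, no duplicates and no variation between cultures, so it says nothing of these. Expressed members are all named with values; of the other lists, up to 3 past the 2-fold rule with the largest ratios, or the 2 most abundant, were named. Tgm1, Tgm3, Kprp, S100a11, S100a14 and S100a16 were named after their values were seen. Members and lists were chosen with earlier results of these data known. Alternatives covered normalization (DESeq2 1.42.0 size factors, total reads, counts as deposited), FPKM, pseudocount, floor, fold, copies and membership.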

Additional observations from a re-analysis of the deposited data

How the results depend on the processing

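Of the member counts, medians, family folds and ratios of family folds as recomputed under the alternatives, 79 stayed and 14 moved. Staying meant within the counting interval for folds and ratios, and within 1.5 times the count for counts. For medians it meant within the median half-width of the intervals of single members, which is not an interval of the median. The alternatives of scaling (DESeq2, total reads, counts as deposited) could hardly move a value, as the TMM factors were 0.999 and 1.001. Ratios of family folds do not depend on library scale at all. The rows of these settings are thus no measure of robustness. The fold of Lce6a (11 reads in both libraries) was 1.11 by reads and 0.784 by FPKM, within its interval of 0.438 to 2.83; no other family fold or ratio of folds turned from one side of 1 to the other. The count of genes at least 2-fold higher was 6; it fell to 3 with a pseudocount of 2 CPM (log2 values of 0.96 for Lor, 0.92 for Sprr2a3 and 0.67 for Flg2) and was 20 with a 1.5-fold rule. By FPKM, Flg2 was lost (0.36 with 1 FPKM added). The median log2 ratio of expressed members ran from 0.51 to 0.70, and the count of intervals above 1 from 25 to 30 of those tested. Without the most abundant member, family folds became 1.16 (Sprr1, without Sprr1a), 2.11 (Sprr2, without Sprr2h), 1.82 (Lce3, without Lce3c) and 1.6 (fused S100, without Tchh). By FPKM the fold was 1.5 for Sprr2 and 1.47 for the fused S100 genes, and the ratios of folds were 0.997 (Lce1 over Sprr2), 1.18 (Lce3 over Sprr2), 0.832 (Sprr1 over Sprr2), 0.847 (Sprr1 over fused S100) and 1.02 (Sprr2 over fused S100); the cause was not tested beyond the implied lengths given above. Leaving out the Sprr2a genes, an alternative chosen after seeing the data, gave 1.48 for Sprr2, and adding the 3 left-out Sprr2 genes gave 1.71. For single expressed members the FPKM ratio lay inside the counting interval in 41 of 41 cases. FPKM divides the same counts by an effective length, so this was nearly fixed where the implied lengths were alike, as for Lce3c (261 bases in both). Below 50 CPM the median half-width of an interval was 0.38 (log2), and smaller differences were often not detectable at this depth. No paired analysis was possible because each genotype had 1 library.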
